A study of Rattus norvegicus with 18 samples.

Results

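Hearts of young male rats whose dams had received cannabidiol in gestation were compared between the higher dose, 30 mg/kg/day (CBD30, 5 hearts), and the lower dose, 3 mg/kg/day (CBD3, 6 hearts). These 11 hearts were chosen by their dose labels from the 18 of the series. The other 7 came from offspring of vehicle-treated dams and show where the unexposed level lies. The offspring of all groups were male Wistar rats of 3 weeks, and whole flash-frozen hearts were used, so the values mix every cell type of the organ. In such bulk samples, fewer cells of a type and less RNA per cell cannot be told apart. The labels do not say which hearts shared a dam. The dams were dosed, so p-values that treat offspring as independent measure the spread between hearts and would be too small if littermates are alike.

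Cannabidiol is a constituent of cannabis that does not intoxicate. It is lipid soluble, crosses the placenta and acts weakly at the classical cannabinoid receptors, while vanilloid channels, serotonin receptors and peroxisome proliferator-activated receptors are among its reported targets. Around weaning, when these hearts were taken, rat heart muscle cells have mostly stopped dividing and burn fatty acids as their main fuel. A comparison of doses addresses whether the later state of the heart depends on how much compound reached the mother.

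The counts name genes by Ensembl ID, and the reference used here paired 0 of 30560 IDs with a symbol. The function of the genes below is therefore not given, no sequence could be matched to them, and the labelled tissue could not be checked against heart markers. Of the 30560 genes, 17009 passed the filter on low counts and were tested. The other 13551 held 0.0163% of all counts in the 11 hearts, and none had a mean above 0.552 CPM (the count scaled to a common library size). The CBD3 libraries held 56992503 to 89240727 counts and the CBD30 libraries 44127009 to 82220752.

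Each sample also has a code whose last digit, 1 or 2, is not explained by the labels. CBD3 holds 3 hearts of each digit, and CBD30 holds 2 of digit 1 and 3 of digit 2. The digit parted the library totals of the CBD hearts, at 68224690 to 89240727 counts for digit 1 and 44127009 to 67302419 for digit 2. In scaled expression, 1 of 17009 genes had an unadjusted p under 0.05 for the digit and 0 were called (edgeR, digit added to the group means). The nominal number is 850, so there were far fewer such genes than an absent digit effect would give. In the 11 CBD libraries, 2580 genes averaged 2 to 10 counts, and these held 1853 values of 2 against 3613 values of 1 and 3110 of 3. No source used here says whether the deposited counts had been corrected for the digit, and what such a correction would do to the dose values was not tested. Dose differences are therefore also given within each digit. With the digit as a covariate, 0 of 17009 genes (0%) were called between doses (edgeR, 234 at an unadjusted p under 0.05). The digit left so little in these values for a covariate to take up that this fit cannot serve as a check on it.

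The doses were parted most clearly by a pair of low-level genes. ENSRNOG00000027433 was lower in every CBD30 heart than in any CBD3 heart, and ENSRNOG00000030016 was higher in every CBD30 heart. Neither passed the threshold in the fit of all 18 hearts, where 0 of 17009 genes (0%) had an adjusted p under 0.05. The 4 IDs described here are the 2 in each direction with the smallest unadjusted p among genes averaging 1 CPM or more whose dose groups did not overlap. Because the dose values chose them, those values are a description.

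ENSRNOG00000027433 stood at 0.934, 1.09, 0.552, 0.980 and 0.546 CPM in CBD30 replicates 1 to 5. In CBD3 replicates 1 to 6 it stood at 3.43, 3.95, 2.601, 2.16, 3.56 and 2.51 CPM. The highest CBD30 heart lay below the lowest CBD3 heart by a ratio of 1.98, the widest gap of any tested gene. The counts behind these levels were 25 to 80 in CBD30 and 124 to 317 in CBD3. CBD30 averaged 0.821 ± 0.255 CPM (SD, n = 5) and CBD3 averaged 3.04 ± 0.709 CPM (SD, n = 6). The log2 fold change was -1.88 ± 0.38 (SE), a level lower by 3.67-fold, with a 95% interval of -2.68 to -1.08 on the log2 scale.

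The call for ENSRNOG00000027433 depended on the fit. The edgeR adjusted p was 0.999 with all 18 hearts and 0.0293 when only the 11 CBD hearts were fitted, where this was the 1 gene called of 16516 (0.00605%). The difference itself hardly moved, at -1.88 and -1.87 (log2), but its SE fell from 0.38 to 0.24 without the vehicle hearts. DESeq2 with all 18 hearts also called this gene alone, of 24347 (0.00411%), with an adjusted p of 0.00497. The limma voom fit did not call it (adjusted p = 0.9997), with 295 genes at an unadjusted p under 0.05.

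Vehicle hearts spanned both dose levels of ENSRNOG00000027433. They stood at 0.747, 0.580, 1.33 and 2.73 CPM in the samples coded 1.1, 2.1, 3.1 and 4.1 and at 0.796, 3.00 and 1.95 CPM in vehicle replicates 5 to 7. By the highest CBD30 and the lowest CBD3 heart, 3 of 7 vehicle hearts fell in the CBD30 range or below, 2 in the CBD3 range and 2 between. Their mean was 1.59 ± 0.987 CPM (SD, n = 7). Against vehicle, CBD30 differed by -0.95 ± 0.37 (log2, SE; edgeR adjusted p = 0.236) and CBD3 by 0.93 ± 0.33 (log2, SE; edgeR adjusted p = 0.551). These comparisons share their hearts with the dose comparison and did not pass the threshold.

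ENSRNOG00000030016 showed the opposite order. It stood at 5.50, 6.41, 4.66, 3.11 and 5.64 CPM in CBD30 replicates 1 to 5. CBD3 replicates 1 to 6 had 0.444, 0.723, 0.469, 2.16, 0.547 and 0.404 CPM. Among the CBD3 hearts 5 lay under 1 CPM, and replicate 4 lay apart from them and closer to the lowest CBD30 heart. Raw counts were 200 to 471 in CBD30 and 29 to 124 in CBD3. CBD30 averaged 5.07 ± 1.26 CPM (SD, n = 5) and CBD3 averaged 0.791 ± 0.679 CPM (SD, n = 6).

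The log2 fold change of ENSRNOG00000030016 was 2.70 ± 0.59 (SE), a 6.5-fold higher level, with a 95% interval of 1.47 to 3.93 on the log2 scale. It was 3.29 ± 0.58 (SE) without CBD3 replicate 4, and 2.57 to 2.83 when any other single heart was left out. The edgeR adjusted p was 0.999 with all hearts and 0.0813 with the 11 CBD hearts alone, and DESeq2 gave an adjusted p of 0.158. Vehicle hearts again divided, at 8.88, 3.39, 5.58 and 0.459 CPM in the samples coded 1.1, 2.1, 3.1 and 4.1 and at 0.667, 3.90 and 4.75 CPM in replicates 5 to 7. Of the 7, 5 stood at or above the lowest CBD30 heart and 2 within the CBD3 range. CBD30 and vehicle differed by 0.35 ± 0.53 (log2, SE; edgeR adjusted p = 0.742) and CBD3 and vehicle by -2.35 ± 0.56 (log2, SE; edgeR adjusted p = 0.504).

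ENSRNOG00000000860 was the 1 of the 4 IDs for which all 5 CBD30 hearts also lay outside the vehicle range. It stood at 60.7, 60.2, 39.3, 55.1 and 52.5 CPM in CBD30 replicates 1 to 5 and at 77.1, 70.4, 75.3, 96.7, 82.1 and 66.2 CPM in CBD3 replicates 1 to 6. The vehicle hearts ranged from 75.0 to 98.3 CPM with a median of 86.9 CPM. CBD3 overlapped vehicle, with 2 of 6 hearts below the lowest vehicle heart. The dose gap was narrow, since the lowest CBD3 heart exceeded the highest CBD30 heart by a ratio of 1.09. The log2 fold change between doses was -0.54 ± 0.12 (SE; edgeR adjusted p = 0.999), and the 95% interval was -0.79 to -0.30. CBD30 and vehicle differed by -0.69 ± 0.11 (log2, SE). The edgeR adjusted p of that difference was 0.0751 with all hearts. Of 29 alternatives, 27 also left it above the threshold (adjusted p up to 0.487), and the exceptions were edgeR without the vehicle heart coded 3.1 (adjusted p = 0.0433) and DESeq2 (adjusted p = 0.00025). CBD3 and vehicle differed by -0.15 ± 0.11 (log2, SE; edgeR adjusted p = 0.589).

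ENSRNOG00000024799 was the second ID higher in CBD30, with a small difference. CBD30 replicates 1 to 5 had 178.6, 183.3, 169.8, 168.9 and 162.9 CPM, and CBD3 replicates 1 to 6 had 126.7, 128.7, 130.5, 148.2, 152.1 and 156.5 CPM. The CBD3 hearts themselves divided by code digit, with replicates 1 to 3 (digit 1) all below replicates 4 to 6 (digit 2). The CBD30 hearts divided the other way, with replicates 1 and 2 (digit 1) above replicates 3 to 5 (digit 2). The log2 fold change was 0.30 ± 0.11 (SE; edgeR adjusted p = 0.999), with a 95% interval of 0.071 to 0.53. Vehicle hearts ran from 133.8 to 201.8 CPM, across both doses, with 4 of 7 at or above the lowest CBD30 heart and 3 within the CBD3 range.

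**Figure D1:**
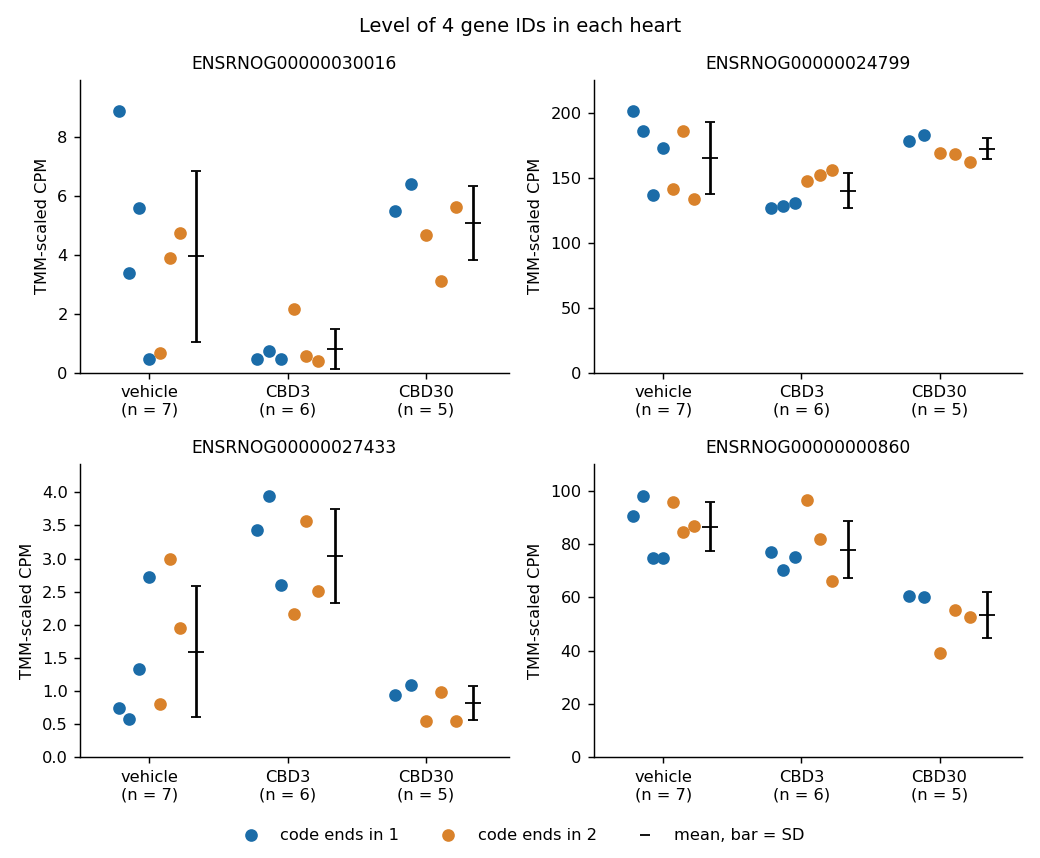
TMM-scaled CPM (vertical axis, from 0) of the 4 IDs in each vehicle, CBD3 and CBD30 heart, coloured by the last digit of the sample code; black bars are the group mean with its SD. The CBD3 and CBD30 points do not overlap in any panel, and the vehicle points span both doses for every ID except ENSRNOG00000000860, where they stand between 75.0 and 98.3 CPM.

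Within the code digits all 4 IDs kept their direction, which the absence of overlap fixes in advance, so the sizes are what can be read. ENSRNOG00000027433 differed by -1.70 ± 0.58 in the digit 1 hearts (2 CBD30, 3 CBD3) and -1.97 ± 0.45 in the digit 2 hearts (3 of each), as log2 fold changes with SE. ENSRNOG00000030016 differed by 3.46 ± 0.83 and 2.12 ± 0.71. ENSRNOG00000000860 differed by -0.28 ± 0.15 and -0.74 ± 0.17, and ENSRNOG00000024799 by 0.51 ± 0.16 and 0.13 ± 0.14. The change of the dose difference between digits did not pass the edgeR interaction test for any of the 4 (adjusted p = 0.9996 for each), nor for any other gene (0 of 17009, 406 at an unadjusted p under 0.05, lowest adjusted p = 0.233).

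Across the transcriptome, the dose groups did not overlap for 37 of 17009 genes (0.218%), 11 higher in CBD30 (0.0647%) and 26 lower (0.153%). With scaling by library size only they numbered 22, 9 higher and 13 lower. Where dose has no effect, a single one of the 462 regroupings of the 11 hearts puts all CBD30 values on a given side. Genes without overlap therefore also arise by chance. The shares found, 0.0647% higher and 0.153% lower, were each below the share that a single regrouping of the 462 makes up. The 37 genes are thus no more than chance alone would give, and whether any of them depends on dose was not tested. Most of the 37 differences were small. Of the 37, 25 differed by less than 1.5-fold and 7 by more than 2-fold, and the median size was 0.34 on the log2 scale against 0.09 over all tested genes. The gap between the groups exceeded 0.1 on the log2 scale for 11 genes and 0.5 for 2, which are ENSRNOG00000027433 (0.96) and ENSRNOG00000030016 (0.52). The closest gene inside the set was parted by 0.000362 on the log2 scale, and the closest outside had a gap of -0.00155, that is, an overlap.

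The vehicle mean, which had no part in choosing these 37 genes, lay beyond the CBD3 mean for 16 of them, between the doses and nearer CBD3 for 10, between and nearer CBD30 for 9, and beyond CBD30 for 2. Among the 26 genes lower in CBD30 these numbers were 13, 6, 7 and 0. The same hearts set the dose means and the position of vehicle against them, so these counts are a description. Groups did not overlap for 107 genes between CBD30 and vehicle (0.629%) and for 33 between CBD3 and vehicle (0.194%), with 12 and 13 hearts in place of 11. More hearts make an absence of overlap harder to reach by chance, so these shares are not on a like footing with that of the 37 genes.

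The 10 most abundant genes, at 12725 to 80187 CPM, took 24.4% to 30.0% of the counts in the 11 hearts. Their log2 dose differences ran from -0.24 to 0.19, with 9 of 10 estimates above 0, the widest 95% interval reached 1.68-fold, and the lowest unadjusted edgeR p was 0.123. The groups did not overlap for 1 of them, singled out after its values were seen. CBD30 averaged 20748 ± 1201 CPM of it (SD, n = 5) and CBD3 24541 ± 2572 CPM (SD, n = 6), and its 95% interval of -0.56 to 0.072 (log2) included no difference.

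**Figure D2:**
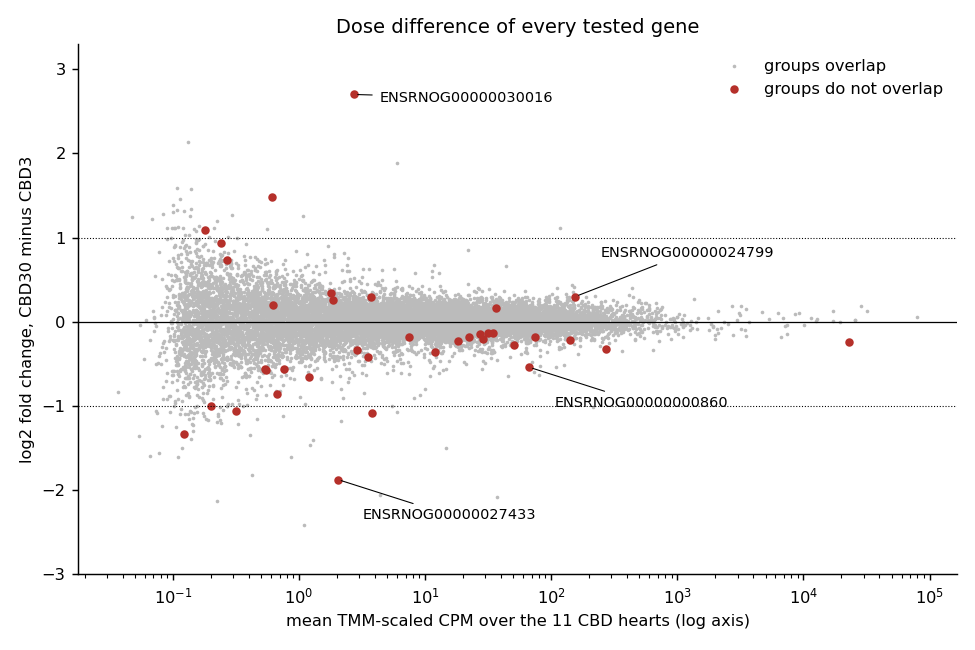
Log2 fold change of CBD30 against CBD3 (vertical axis) over the mean level in the 11 hearts (horizontal log axis, TMM-scaled CPM) for 17009 genes; red points are the 37 genes whose dose groups do not overlap, and dotted lines mark 2-fold. Most red points lie within the grey cloud, and ENSRNOG00000030016 at 2.70 and ENSRNOG00000027433 at -1.88 stand outside it.

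Small p-values were fewer than an even spread would give. An unadjusted p under 0.05 was found for 294 genes (1.73%), 125 higher (0.735%) and 169 lower (0.994%) in CBD30, where 850 is the nominal number. Under 0.01 there were 44 genes against a nominal 170, and under 0.001 there were 4. The lowest adjusted p was 0.999 (edgeR), so no gene came near the threshold in the fit of all hearts. The vehicle comparisons in the same fit had more such genes, 2794 for CBD30 (16.4%) and 1518 for CBD3 (8.92%).

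**Figure D3:**
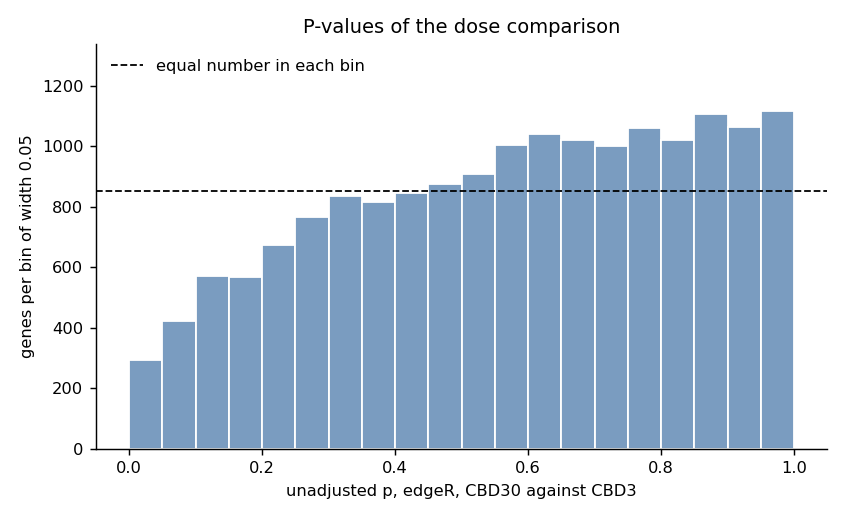
Number of genes (vertical axis) in each bin of width 0.05 of the unadjusted edgeR p for CBD30 against CBD3 (horizontal axis); the dashed line marks an equal number in each bin. The lowest bin holds 294 genes and the highest 1115, and the bins fall toward small p.

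The dose difference was bounded for the 13474 genes that averaged 1 CPM or more. The 95% interval lay within 2-fold either way for 13040 of them (96.8%) and within 1.5-fold for 10903 (80.9%). A 2-fold rise with the higher dose lay outside the interval for 98.4% of these genes and a 2-fold fall for 98.0%. For the median gene the outer end of the interval was 1.31-fold. These are intervals for single genes. The fit treats hearts as independent, so the intervals, like the p-values, would be too narrow if littermates are alike. When widened to hold for all 17009 tested genes at once (Bonferroni), the intervals lay within 2-fold for 47.6% of the 13474 and within 4-fold for 91.7%.

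The bounds were widest for genes of low level. The outer end of the median interval was 2.01-fold below 1 CPM, 1.42-fold at 1 to 10 CPM, 1.26-fold at 10 to 100 and at 100 to 1000 CPM, and 1.32-fold at 1000 CPM and over. For genes of 10 to 100 CPM, the largest class with 7198 genes, the interval lay within 2-fold for 99.0% and within 1.5-fold for 91.05%. For 1176 genes of 100 to 1000 CPM these shares were 99.4% and 92.9%, and for the 69 genes of 1000 CPM and over they were 100% and 89.9%. Of 5031 genes of 1 to 10 CPM, 93.0% lay within 2-fold and 63.5% within 1.5-fold. Below 1 CPM 49.1% of 3535 tested genes lay within 2-fold, so for the others the interval still held a doubling or a halving between doses.

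At the median SE, a difference of 1.76-fold at 10 to 100 CPM, 2.30-fold at 1 to 10 CPM and 5.00-fold below 1 CPM would have been needed for a gene to pass the threshold as the only one called. The median SE in these classes was 0.13, 0.19 and 0.36 (log2). Smaller estimates would not have passed at that SE in the fit of all hearts, while genes with a smaller SE needed less and genes with a larger SE more.

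**Figure D4:**
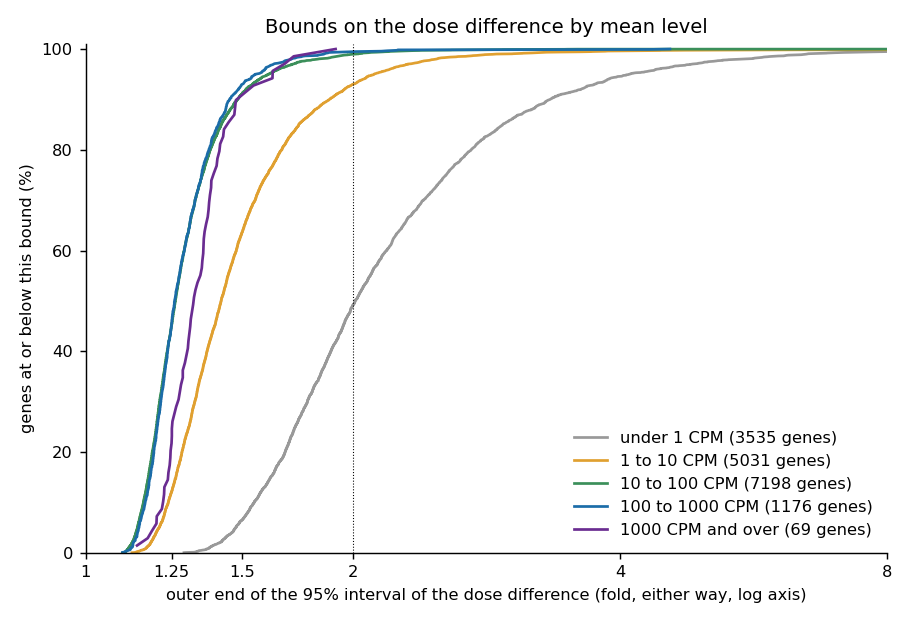
Share of genes (vertical axis, percent) whose 95% interval for the dose difference ends at or below a given fold in either direction (horizontal log axis), by mean level in the 11 hearts. At the dotted line of 2-fold the curves stand at 99.0% for 10 to 100 CPM, 93.0% for 1 to 10 CPM and 49.1% under 1 CPM.

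For 434 genes of at least 1 CPM the interval reached 2-fold or beyond. A large SE helps a gene into this set, so the values of these 434 genes are a description. Their median SE was 0.44 against 0.14 for the genes bounded within 2-fold, their median level was 2.72 CPM against 16.7 CPM, and the interval included no difference for 393 of them. It reached 2-fold upward only for 164, downward only for 219 and both ways for 51. An estimate beyond 2-fold was found for 16 genes, 4 higher and 12 lower in CBD30. Of these, 6 had an unadjusted p under 0.05 and 3 had dose groups that did not overlap. The 95% interval excluded changes smaller than 1.2-fold for 27 of all tested genes and smaller than 1.5-fold for 4.

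No gene in the whole table was present at one dose and absent at the other. Of 30560 genes, 0 had counts in all CBD30 hearts and none in CBD3, and 0 had the reverse. There were also 0 genes with at least 10 counts in every heart of one dose and a mean count 10 times that of the other. A further 6813 genes had no count in any of the 11 hearts.

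The median distance between hearts of unlike dose was not above that between hearts of the same dose. Over the 13474 genes, the root mean square log2 difference between a pair of hearts had a median of 0.376 for the 30 pairs across doses, 0.392 for the 15 pairs within CBD3 and 0.442 for the 10 pairs within CBD30. The ranges overlapped, at 0.295 to 0.611, 0.303 to 0.524 and 0.337 to 0.637. The SD of a gene within CBD30 had a median of 0.229 (log2) and that within CBD3 0.185. Without CBD30 replicate 2 the CBD30 value was 0.178.

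The first component of the 11 hearts held 23.6% of the variance, and the scores averaged 4.61 ± 34.8 in CBD30 (SD, n = 5) and -3.84 ± 16.1 in CBD3 (SD, n = 6; exact two-sided permutation p = 0.693). CBD30 replicate 2 stood at 63.4, with all other hearts between -27.3 and 15.7. The second component (14.2%) set CBD3 replicate 6 apart at -50.6. Over 6 library measures (library total, genes detected, share of the 10 most abundant genes and 3 components), the exact permutation p over 462 regroupings was 0.204 to 0.896, and 0.877 to 0.896 after Benjamini-Hochberg adjustment. The library total was 63247348 ± 13882353 counts in CBD30 (SD, n = 5) and 74444684 ± 12451242 in CBD3 (SD, n = 6), a difference within the spread between libraries.

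With CBD30 replicate 2 and CBD3 replicate 6 both left out, 0 genes were called and 406 had an unadjusted p under 0.05 (edgeR). The dose groups then did not overlap for 314 genes, where fewer hearts make an absence of overlap easier to reach. ENSRNOG00000027433 had a log2 fold change of -2.04 ± 0.44 (SE) without these hearts, against -1.88 with all hearts. ENSRNOG00000030016 had 2.47 ± 0.66 (SE), against 2.70 with all. The choice of IDs without overlap fixes the sign, so only the sizes can be read.

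**Figure D5:**
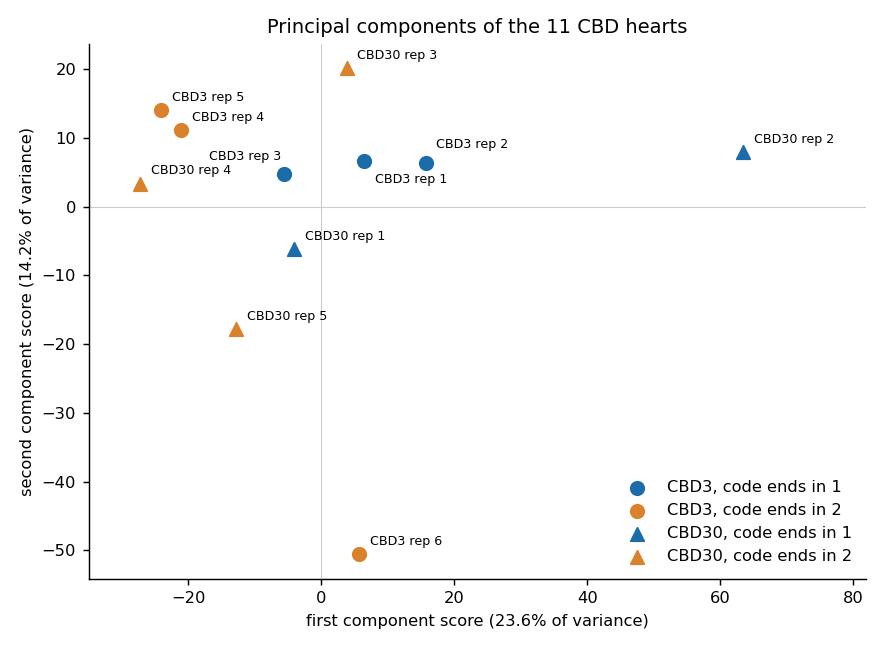
Scores of the 11 CBD hearts on the first (horizontal) and second (vertical) principal component of log2 CPM, circles for CBD3 and triangles for CBD30, coloured by the last digit of the sample code. The doses are interleaved, with CBD30 replicate 2 far right at 63.4 and CBD3 replicate 6 far below at -50.6.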

How the data were processed

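RNA of whole hearts was sequenced after enrichment of messenger RNA with a stranded kit, per the labels' protocols. The deposited table holds the authors' unnormalised counts, made with featureCounts and tied to the build mRatBN7.2 per the submitters' processing notes, which also name edgeR. No source used here gives the aligner, annotation or counting settings, or says whether the counts had been corrected for the code digit. All 18 columns were mapped to groups, and 4 vehicle columns, whose labels hold a pair of codes each, carry no replicate number and are named by code.

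Low counts were filtered with filterByExpr (groups as design, at least 10 counts, at least 15 in total). TMM scaling preceded the quasi-likelihood test in edgeR 4.0.16 (R 4.3.3), in a single fit of 18 hearts, with Benjamini-Hochberg adjustment over 17009 genes and a threshold of 0.05. The F statistic gave the SEs, from which 95% intervals were computed. Library measures were compared by exact permutation. Log2 CPM used a prior count of 2. The script was tested on simulated data. Alternatives used DESeq2 1.42.0, limma 3.58.1, other scalings, filters, covariates and left-out hearts. The 25 pairs of libraries within a dose all differed by more than sampling noise (chi-square at least 36.5 times its degrees of freedom).

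The comparison, lists and rules were chosen with earlier results of these data known. The rule named genes past the threshold, genes called by DESeq2 or in the fit of 11 hearts, 12 genes per direction by p and members of 24 gene lists and 16 marker lists. With 0 of 30560 IDs paired with a symbol (reference assembly GRCr8, 0 of 47357 genes with an Ensembl ID), it allowed 2 IDs per direction, and the lists and the share of mitochondrially encoded genes were not analysed here.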

Additional observations from a re-analysis of the deposited data

Results flagged for a closer look

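In 24 sets of 5 to 7 hearts (the 4 IDs in each group and the 6 library measures in each dose), 2 held a heart far from the others, where chance gives about 1 set in 20. For ENSRNOG00000030016 in CBD3 hearts, replicate 4 stood at 2.16 CPM and the nearest other heart at 0.723 CPM. On the second component within CBD3, replicate 6 stood at -50.6 and the nearest other heart at 4.70.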

How the results depend on the processing

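The fit without both CBD30 replicate 2 and CBD3 replicate 6 and the unblocked fit of 10 hearts were chosen after seeing the data. The number of genes called was 0 in every fit run except 1 with only the CBD hearts and 1 with DESeq2, both ENSRNOG00000027433 (adjusted p = 0.0293 and 0.00497, and 0.0566 to 1 in its other fits). Leaving out each of the 18 hearts gave 0 to 0 called, and 230 to 363 genes at an unadjusted p under 0.05 (294 with all). That count was 615 with no filter, 177 with a mean of at least 1 CPM, which test more and fewer genes, and 839 with limma sample weights, where the cause was not tested. The number bounded within 2-fold stayed within 1.5 times 13040, at 11446 to 13252. The log2 dose differences without 1 heart were 2.57 to 3.29 for ENSRNOG00000030016, 0.27 to 0.33 for ENSRNOG00000024799, -1.99 to -1.76 for ENSRNOG00000027433 and -0.59 to -0.45 for ENSRNOG00000000860, where the choice of IDs without overlap fixes the sign. The difference of ENSRNOG00000024799 between CBD30 and vehicle turned from 0.058 to -0.018 (log2) with library size only.

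The replicate numbers shared by CBD3 and CBD30 did not pair the hearts (correlations of deviations 0.466, 0.287, 0.122, 0.0781 and -0.098, with 1 of 5 CBD30 hearts correlating best with its own number). Replicates 3, 4 and 5 have unlike codes at the 2 doses, and pairing by code is not given here. With a replicate block on the 10 hearts numbered 1 to 5, 0 genes were called and 770 had an unadjusted p under 0.05, against 529 in the same hearts with no replicate block.

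Genes with no overlap between doses numbered 22 with library size only (9 higher, 13 lower), 38 with relative log expression factors, 45 to 134 without 1 CBD heart (112 without CBD3 replicate 6, 134 without CBD30 replicate 2) and 314 without the 2 hearts farthest out. Fewer hearts make such an absence of overlap easier. Without 1 CBD heart the CBD30 minus CBD3 difference ran from -15940687 to -6417251 counts for the library total, -297.4 to -82.7 for genes detected, -0.122 to 0.735 percentage points for the share of the 10 most abundant genes, and -6.26 to 16.4, -7.08 to 7.62 and -8.92 to 7.27 for the 3 components. The share turned sign without CBD3 replicate 6 (-0.068) or CBD30 replicate 2 (-0.122), the first component without CBD30 replicate 2 (-6.26), the second without CBD3 replicate 6 (-7.08) or CBD30 replicate 3 (-1.87), and the third without CBD3 replicate 5 (-1.06) or CBD30 replicate 3 (-8.92). Bounds were widest below 1 CPM, where 49.1% of genes were bounded within 2-fold, and the part of depth in this was not tested.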
